A study of Sus scrofa with 17 samples.

Results

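The genes described here encode subunits of the proteasome, the protease complex that degrades ubiquitin-tagged proteins in the cytoplasm and nucleus. They were chosen by name: 35 genes for the 20S core, the 19S cap and the 11S activator, of the 31908 genes counted in the study. Counts were found for 34 of them. RNA-seq had been run on longissimus muscle of male Large White × Duroc piglets, with 1 library for each of 17 animals. The piglets entered the trial at 28 days of age, had 5 days of adaptation, were housed individually in metabolic cages and received their diet for 2 weeks with intake matched by pair-feeding. The control piglets (n = 6) ate wheat, maize and soybean meal with no seaweed, the UL piglets (n = 6) ate a diet with 7% Ulva lactuca, a green seaweed, and the ULU piglets (n = 5) ate the UL diet with 0.01% recombinant ulvan lyase, which degrades ulvan, a polysaccharide of the cell walls of Ulva. The piglets are separate animals, and no library was the same as another.

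In the 20S core, outer rings of alpha subunits control the entry of substrates and inner rings of beta subunits hold the proteolytic sites. The 19S cap recognises ubiquitin chains, removes them, and unfolds and threads the substrate into the core with a ring of ATPases. In muscle, this system degrades myofibrillar proteins that ubiquitin ligases such as FBXO32 and TRIM63 have marked. After exposure to interferon, PSMB8, PSMB9 and PSMB10 can replace the constitutive catalytic subunits PSMB5, PSMB6 and PSMB7, which gives the immunoproteasome that generates peptides for class I antigen presentation.

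The libraries held 16137365 to 26546810 reads assigned to genes. Levels are given as CPM, reads scaled to a common library size with TMM factors, and 3 reads, the smallest signal taken as detectable, came to 0.113 to 0.1859 CPM of a library's unscaled total. The TMM factors ran from 0.7649 in ULU piglet 43 to 1.215 in control piglet 22, and a low factor raises the CPM. Ranges of CPM, and whether they overlap, are given with these factors and were not recomputed from library totals alone. The labelled tissue was checked with markers of skeletal muscle, of which ACTA1, the skeletal alpha-actin, had 1046505 to 3078381 reads per library. Genes of the mitochondrial chromosome took 14.05% to 15.88% of the counted reads in control, 8.64% to 14.76% in UL and 8.002% to 11.65% in ULU, so that the control and ULU ranges did not overlap. Fits with that share as a covariate are given below. Because share and diet cannot be fully told apart, these fits do not separate their parts. Since the libraries come from whole muscle, fewer cells of a type and less RNA per cell cannot be told apart.

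Of the 34 genes with counts, 33 passed the filter on low counts and were tested among 14203 genes. The other was PSMB5, the subunit with the chymotrypsin-like site, at 0 to 2 reads per library. Of its 720 exonic bases in the annotation, 660 also belong to C14orf93, and reads that overlap several genes were not counted, so the counts do not measure PSMB5. PSMA6, an alpha-ring subunit, had no entry of its own: its span lies within that of PRORP. A part of the exonic bases was shared with other genes for 15 of the 33 genes tested, and over 30% was shared for 7. These 7 were PSME2 (85.2%, with RNF31), PSME1 (61.3%, with FITM1, EMC9 and DCAF11), PSMC3 (56.7%, with CELF1), PSMB10 (49.3%, with PSKH1 and CTRL), PSMB7 (42.3%, with NEK6), PSMD4 (39.2%) and PSMC5 (30.3%, with SMARCD2 and FTSJ3). Their CPM come from the remaining bases only, and comparisons of level between genes are therefore given per kilobase of unshared exon.

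On that scale, the 28 genes outside the immunoproteasome and 11S activator ranged from 15.9 to 159.3 CPM per kb, with a median of 48.2, as means of all 17 piglets. The highest level was that of PSMB1, a structural subunit of the beta ring, followed by PSMB6 with 130.2 CPM per kb, PSMB4 with 117.8, PSMC6 with 111 and PSMA5 with 108. PSMA4 was the lowest of the 28, over 8261 annotated exonic bases. The immunoproteasome genes stood well under all of them, with 5.5 CPM per kb for PSMB8, 3.58 for PSMB10 and 3.05 for PSMB9. Their ranges over piglets, 2.6 to 10.9, 2.45 to 4.71 and 1.21 to 6.08 CPM per kb, overlapped. The 3 genes were measured in the same libraries, and differences between them within a piglet were not tested. PSME1, a subunit of the 11S activator, was at 3.57 CPM per kb and its partner PSME2 at 33.7, a value that rests on 249 unshared bases. Per kb of all annotated exon, PSME1 was at 1.38 and PSME2 at 5 CPM, and without scaling by length they were at 3.33 and 8.39 CPM.

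**Figure D1:**
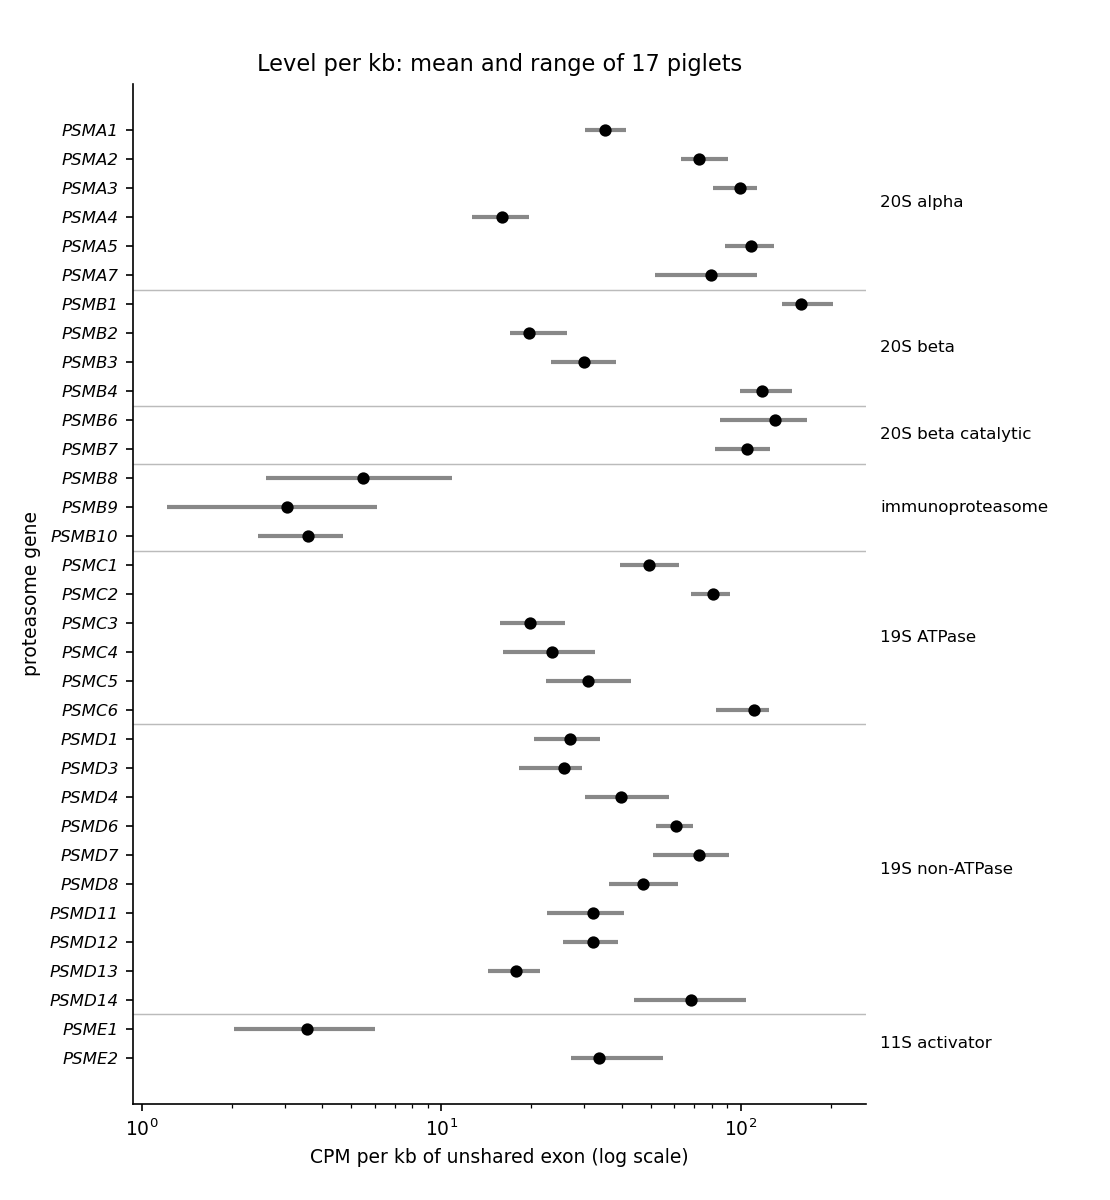
Levels of the 33 proteasome genes tested, in CPM per kb of exon that no other gene shares, on a logarithmic axis. Points are means of all 17 piglets and bars run from the lowest to the highest piglet. PSMB8, PSMB9, PSMB10 and PSME1 have means between 3.05 and 5.5, and the other genes between 15.9 and 159.3. The mean of PSME2, 33.7, rests on 249 unshared bases.

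Within a library, per kb of unshared exon, PSMB9 in control piglets reached 2.91% ± 1.33 (SD, n = 6) of the level of PSMB6, the subunit it replaces. The UL piglets gave 2.53% ± 0.915 (SD, n = 6) for this ratio, and the ULU piglets 1.71% ± 0.83 (SD, n = 5). PSMB10 in control piglets reached 4.02% ± 0.936 (SD, n = 6) of the level of PSMB7, against 3.59% ± 0.654 (SD, n = 6) for UL piglets and 2.68% ± 0.454 (SD, n = 5) for ULU piglets. These ratios depend on the annotated lengths, such as 3079 unshared bases for PSMB10 and 599 for PSMB7. Without scaling by length, control means were 12 CPM for PSMB10 and 59.3 for PSMB7, and 7.08 for PSMB9 and 141.2 for PSMB6. How much of each annotated exon is transcribed in muscle was not tested. The third pair, PSMB8 and PSMB5, could not be compared, because PSMB5 was not measured.

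Together, the 34 genes with counts took 0.316% ± 0.0286 (SD, n = 6) of the TMM-scaled reads of control piglets, 0.323% ± 0.0312 (SD, n = 6) of those of UL piglets and 0.339% ± 0.016 (SD, n = 5) of those of ULU piglets. The summed level was between 2781 and 3517 CPM in control, between 2848 and 3762 CPM in UL and between 3221 and 3592 CPM in ULU, and the ranges overlapped. Around the mean of its diet, the level of a gene moved with the median of the other proteasome genes in most cases. The correlation over the 17 piglets, a description of values that share library and scaling, had a median of 0.587 and was over 0.5 for 24 of 33 genes. It was highest for PSMB1 (0.924), PSMB6 (0.871) and PSMC4 (0.867), and lowest for PSMB10 (0.0552), PSMD11 (0.137), PSME1 (0.154), PSMB9 (0.231) and PSMB8 (0.321).

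**Figure D2:**
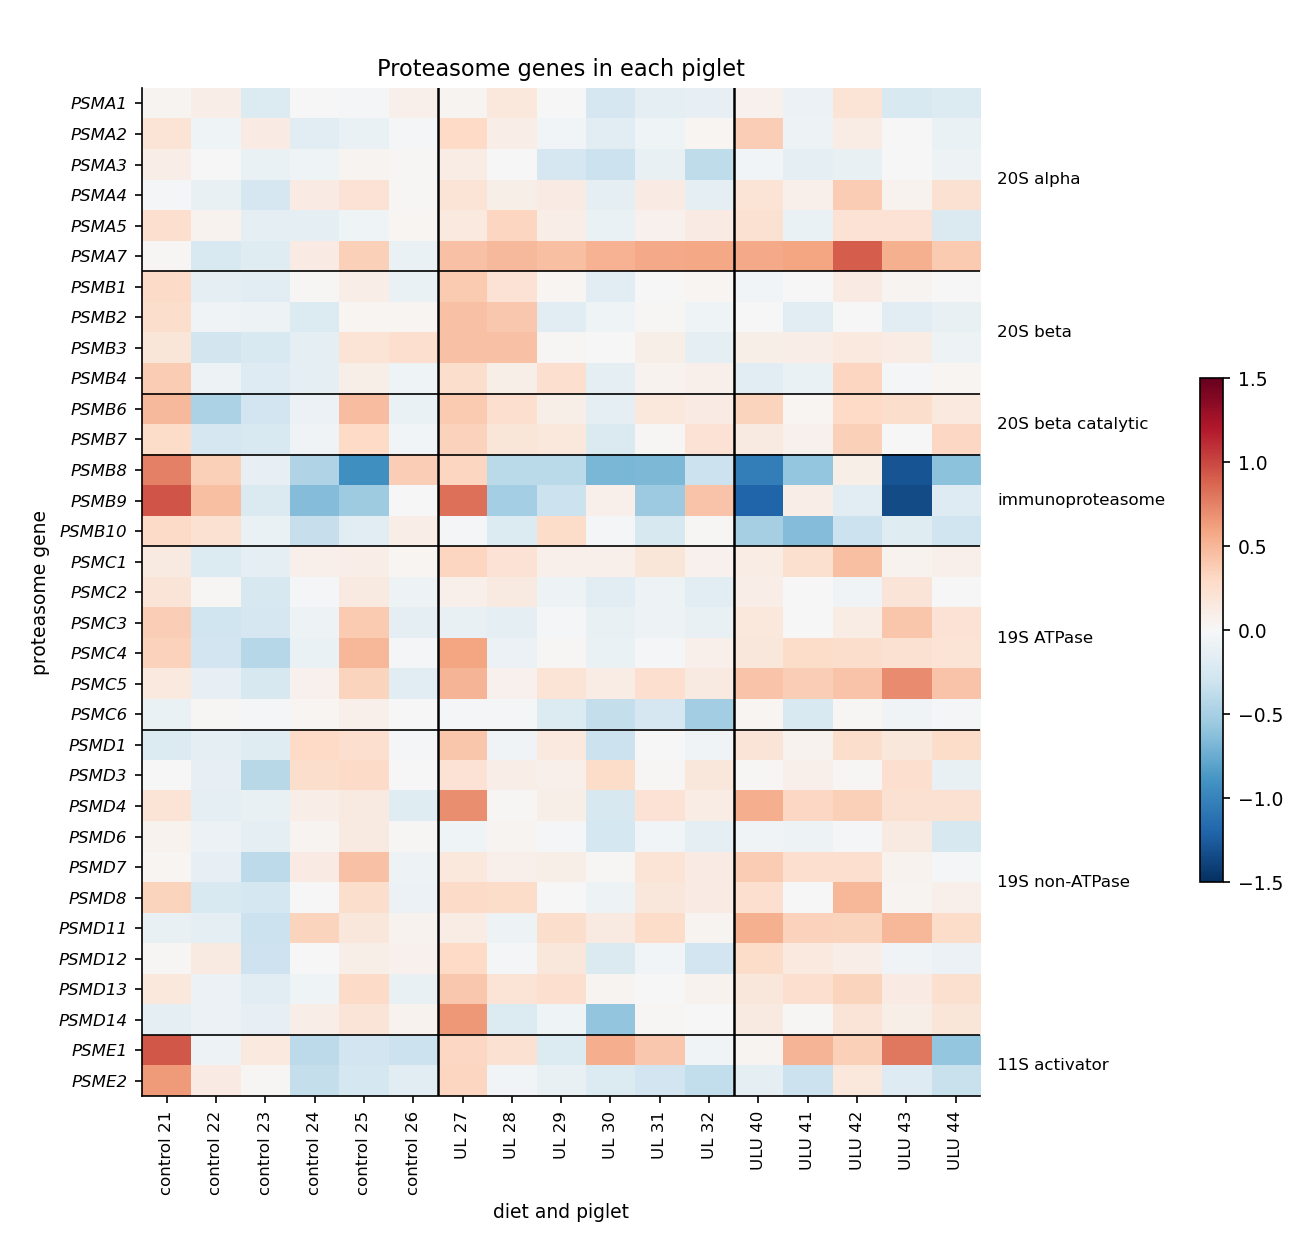
Log2 CPM of the 33 proteasome genes tested in each of the 17 piglets, minus the control mean of the gene; red is above and blue below that mean, and lines separate diets and roles. PSMA7 is above the control mean in all 6 UL and all 5 ULU piglets, and PSMC5 in all 5 ULU piglets, while PSMB8 is lowest in ULU piglet 43 with 7.49 CPM.

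ULU vs control addresses the effect of the seaweed diet with the enzyme. In this comparison 2 of the 33 proteasome genes rose, PSMA7 and PSMC5, and none fell. A gene was called at an adjusted p under 0.05 (edgeR's quasi-likelihood test, Benjamini-Hochberg adjustment over 14203 genes), with no limit on the fold change, and 2.98% of all genes tested passed, 1.99% higher and 0.993% lower. At an unadjusted p under 0.05, 5 of the 33 were higher and 2 lower, against 10.1% and 8.78% of all genes. DESeq2 called 3 of the 33, PSMD11 in addition, on the 2 diets and on all libraries. Of the genes to which it gave an adjusted p, it called 7.17% of 11500 and 8.97% of 11922. The median log2(fold change) of the 33 was 0.075 and that of all genes -0.028, and 24 of the 33 were positive, against 47% of all genes, a count that was 12 when libraries were scaled by their totals alone, where the median of the 33 was -0.11 and that of all genes -0.21.

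PSMA7, a subunit of the alpha ring, lies on chromosome 17, 61566373-61572438, minus strand, in Sscrofa11.1, and shares no exonic base with another gene. Control piglets had 65.7 to 98.1 CPM, with a median of 74.7, and the ULU piglets had 114.1, 115.6, 144, 110.9 and 100.6 CPM. In TMM-scaled CPM, every ULU piglet was above every control piglet, which 2.3% of all genes tested also showed in this direction. Of unscaled reads, ULU piglet 43 had a smaller share (2251 of 26546810) than control piglet 25 (2177 of 23433672). The log2(fold change) was 0.60 (SE 0.11, adjusted p = 0.0102, edgeR's quasi-likelihood test), and the two-sided exact permutation test, in which 462 splits allow no p under 0.00216, gave p = 0.00433. The call held without any of the 17 libraries (adjusted p between 0.00207 and 0.0288, edgeR). It did not hold with library totals alone (log2(fold change) 0.43, adjusted p = 0.06) or with the mitochondrial share as a covariate (0.69, adjusted p = 0.201).

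PSMC5, an ATPase of the ring at the base of the 19S cap, lies on chromosome 12, 15097650-15106205, minus strand. It was measured at 99.4 to 147.2 CPM in control, with a median of 115, and at 157.9, 150.9, 158.2, 191.2 and 158.1 CPM in the ULU piglets. Again no ULU piglet was within the control range. ULU piglet 43, with the lowest TMM factor (0.7649), stood above the other ULU piglets in TMM-scaled CPM but not in its share of unscaled reads. The log2(fold change) was 0.46 (SE 0.11, adjusted p = 0.0354, edgeR's quasi-likelihood test). The call was lost in 8 of the 17 fits without a library, with adjusted p between 0.0544 and 0.0954 (edgeR): those without control piglet 22, 23, 24 or 26 and those without ULU piglet 40, 41, 43 or 44. Without ULU piglet 43, the log2(fold change) was 0.40. It was also lost with the mitochondrial share as a covariate (0.42, adjusted p = 0.442), with library totals alone (0.28, adjusted p = 0.151) and in a fit of only the 2 diets (0.46, adjusted p = 0.0759). Of the genes that overlap it, FTSJ3 had a log2(fold change) of -0.15 (SE 0.14) and SMARCD2 had at most 1 read per library.

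Among the remaining genes of the 19S cap, the largest differences were those of PSMD11, PSMD4 and PSMD13. PSMD11, a scaffold subunit that binds the lid to the core, had 63.5 to 100 CPM in control, with a median of 78.1, and 114.8, 100.8, 100.5, 112.6 and 95.8 CPM in ULU. Only control piglet 24 reached into the ULU range, and the log2(fold change) was 0.39 (SE 0.11, adjusted p = 0.0635, edgeR's quasi-likelihood test). DESeq2 called PSMD11 with an adjusted p of 0.0428 on the 2 diets and 0.0164 on all libraries, and edgeR did so without control piglet 24 (adjusted p = 0.0415) or control piglet 25 (adjusted p = 0.0423). PSMD4, a receptor for ubiquitin chains, was at 26.1 to 34.2 CPM in control and at 43.2, 36.8, 38, 34.7 and 34.5 CPM in ULU. Those ranges did not overlap, yet the adjusted p was 0.182 for a log2(fold change) of 0.33 (SE 0.13, edgeR). Of unscaled reads, ULU piglet 43 had a smaller share (705 of 26546810) than control piglet 25 (718 of 23433672). For PSMD13, a subunit of the lid named after its values were seen, the log2(fold change) was 0.22 (SE 0.10, adjusted p = 0.251, edgeR).

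The other lid and base subunits had log2(fold change) values between -0.052 and 0.19 in ULU vs control, and none passed the test. They were PSMC1, PSMC3 and PSMC4, ATPases whose tails open the gate of the core, the ATPases PSMC2 and PSMC6, the deubiquitinase PSMD14 with its partner PSMD7, the scaffold PSMD1, and the lid subunits PSMD3, PSMD6, PSMD8 and PSMD12. In all, 5 of 6 ATPases and 9 of 10 non-ATPase subunits were positive, and 3 of 6 and 4 of 10 with library totals alone. Of the structural genes of the core, PSMA1, PSMA2, PSMA3, PSMA4, PSMA5, PSMB1, PSMB2, PSMB3 and PSMB4 had values between -0.09 and 0.18.

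**Figure D3:**
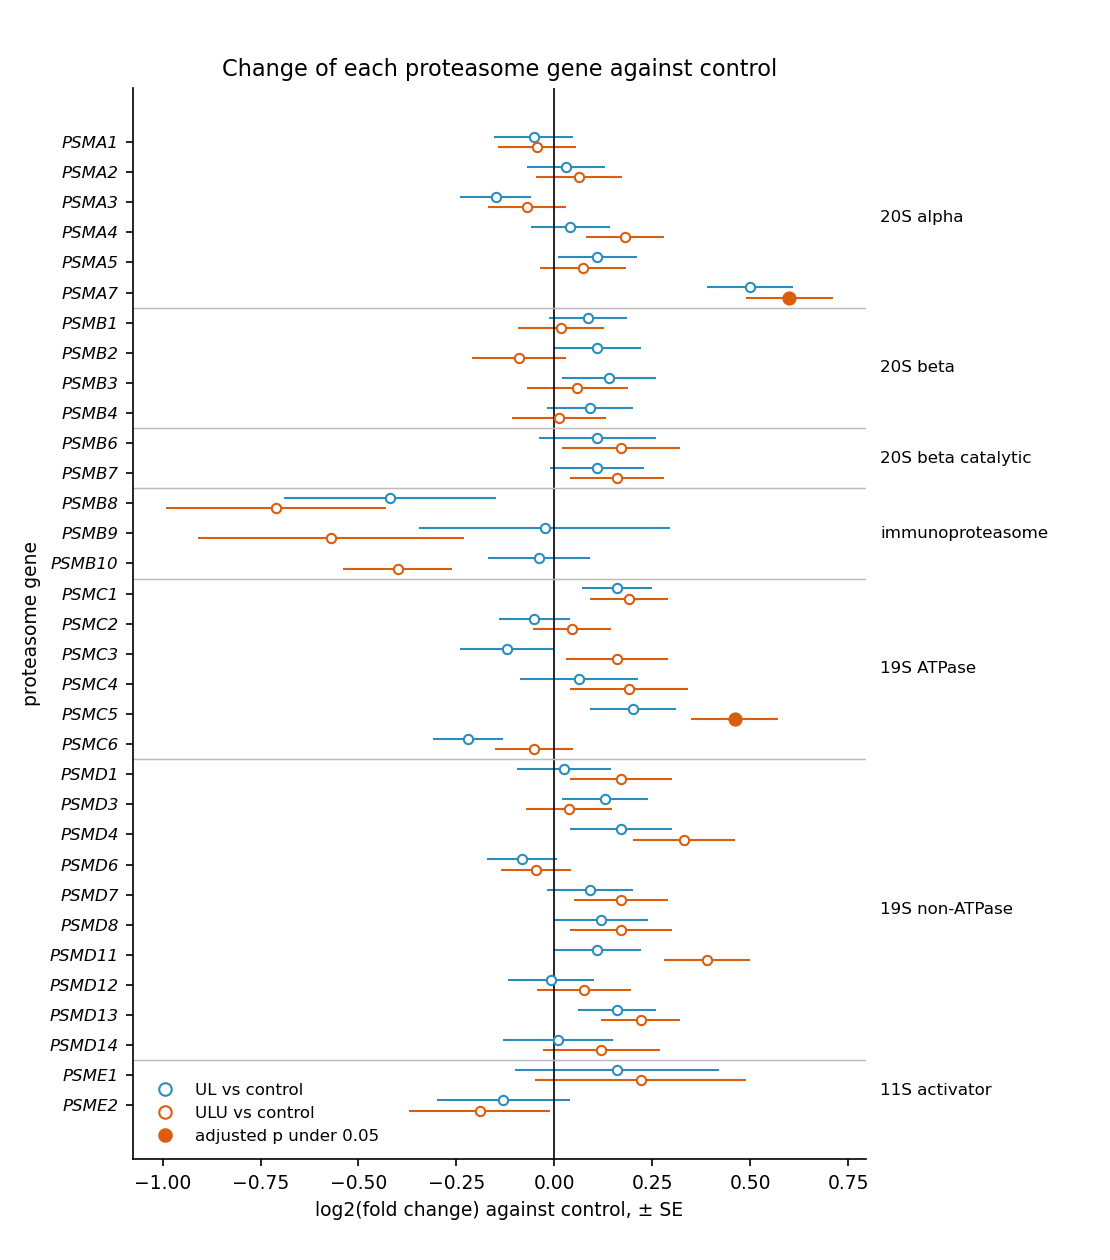
Log2(fold change) of the 33 proteasome genes tested in UL vs control (blue) and ULU vs control (orange), with bars of 1 SE; filled points have an adjusted p under 0.05 (edgeR's quasi-likelihood test). PSMA7 at 0.60 and PSMC5 at 0.46 in ULU vs control are the filled points, and the immunoproteasome genes have the most negative values in that comparison, from -0.71 to -0.40. The same 6 control piglets enter both comparisons.

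The catalytic genes of the constitutive core did not pass the test. PSMB6, with the caspase-like site, had 98.3 to 191.9 CPM in control, 123.3 to 179.5 in UL and 139.1 to 172.1 in ULU, with medians of 128, 150.5 and 164.1 CPM. PSMB7, with the trypsin-like site, had 49.2 to 72.2 CPM in control, 50.4 to 74.7 in UL and 58.3 to 75 in ULU. The ranges of the 3 diets overlapped for both genes. In ULU vs control the log2(fold change) was 0.17 (SE 0.15, adjusted p = 0.588) for PSMB6 and 0.16 (SE 0.12, adjusted p = 0.513) for PSMB7 (edgeR).

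The 3 immunoproteasome genes had the most negative log2(fold change) of the 33 in ULU vs control, but none passed the test, by edgeR or by DESeq2. At an unadjusted p under 0.05, 2 of 3 were lower (edgeR), against 8.78% of all genes. PSMB8 was at 9.78 to 31.5 CPM in control, with a median of 20.4, at 11.5 to 23.2 CPM in UL, with a median of 14, and at 9, 12.4, 19.8, 7.49 and 12.1 CPM in the ULU piglets. Control piglet 25 was under 3 of the 5 ULU piglets, and the log2(fold change) was -0.71 (SE 0.28, adjusted p = 0.174, edgeR). PSMB9 was at 4.15 to 12.7 CPM in control and at 2.8, 7.02, 5.81, 2.51 and 5.69 CPM in ULU, with a log2(fold change) of -0.57 (SE 0.34, adjusted p = 0.381). PSMB10 was at 9.28 to 14.5 CPM in control and at 8.34, 7.54, 9.45, 10.4 and 9.58 CPM in ULU, with a log2(fold change) of -0.40 (SE 0.14, adjusted p = 0.116).

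Values of PSMB8 and PSMB9 also differed widely between piglets of the same diet. Their coefficients of variation were 39.9% and 45.7% in control, 29.2% and 41.3% in UL, and 39.1% and 41.9% in ULU, against medians of 12.6%, 11.2% and 9.35% over the 28 genes outside the immunoproteasome and 11S activator. Without control piglet 21, which had the highest PSMB8 and PSMB9 of all piglets, the log2(fold change) was -0.54 for PSMB8 and -0.33 for PSMB9. Without ULU piglet 42 that of PSMB8 was -0.96, and neither gene was called without any of the 17 libraries.

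**Figure D4:**
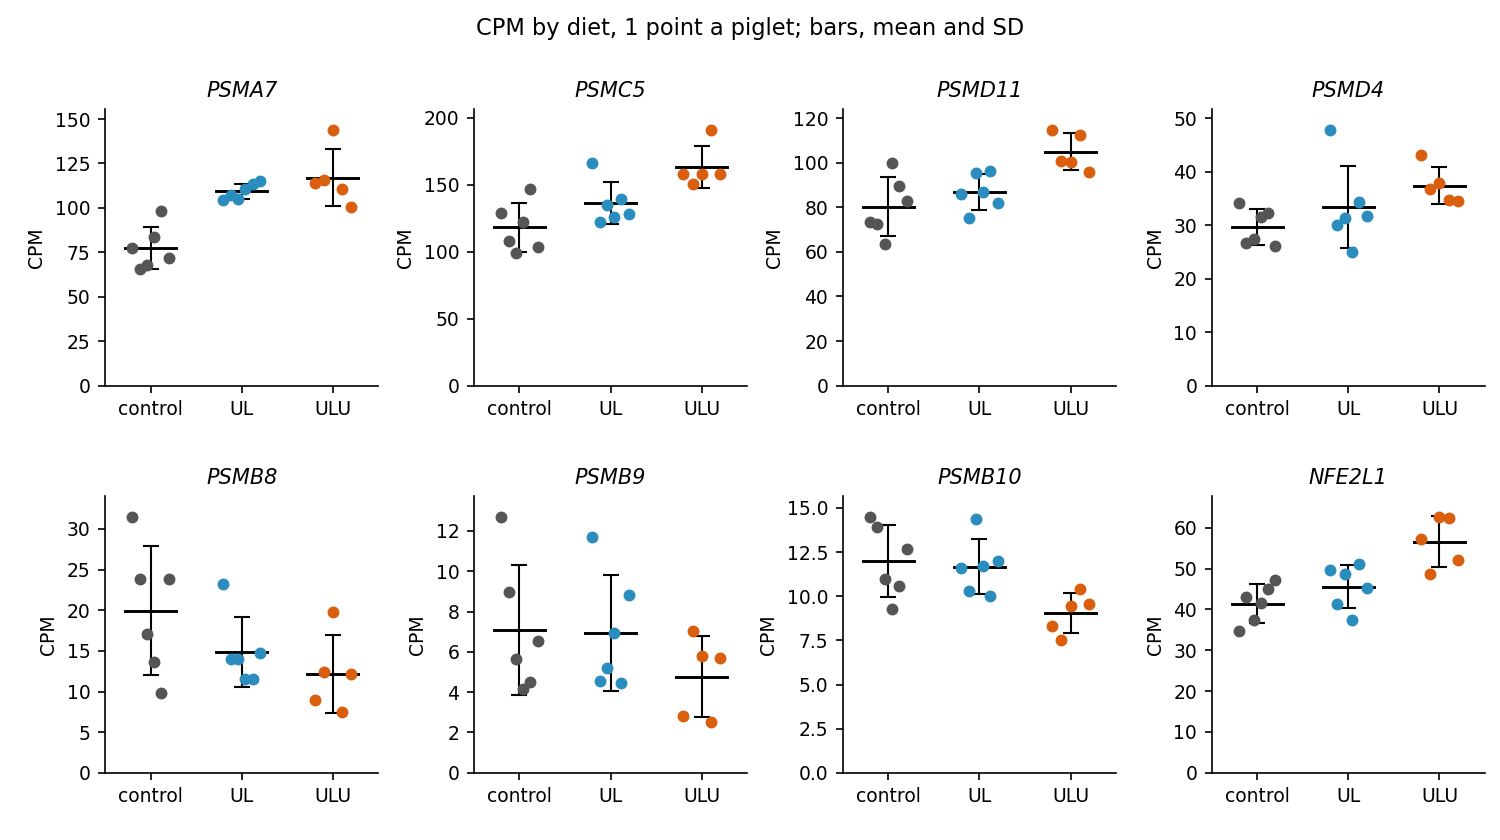
CPM of 7 proteasome genes and of the transcription factor gene NFE2L1 in each piglet, by diet; 1 point is a piglet, and lines and bars are the mean and SD (control and UL n = 6, ULU n = 5). In TMM-scaled CPM, PSMA7, PSMC5, PSMD4 and NFE2L1 have ULU points above all control points, while those of PSMB8, PSMB9 and PSMB10 overlap with control. ULU piglet 43 has the lowest TMM factor, 0.7649, and for PSMA7, PSMD4 and NFE2L1 its share of unscaled reads is under that of a control piglet.

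PSMB8 and PSMB9 rose and fell together from piglet to piglet. Over 17 piglets, with each diet's mean removed, r was 0.815 and rho 0.841 (permutation within diets, p = 0.00022 for both, adjusted p = 0.00242), and r was 0.849 without the 2 piglets farthest from the median of PSMB8. PSMB8 also moved with PTPRC, which encodes the leukocyte antigen CD45, with r = 0.755 (permutation adjusted p = 0.0175), rho = 0.794 (permutation adjusted p = 0.0148) and r = 0.649 without the 2 farthest piglets. For PSMB9 and PTPRC, r was 0.634 (permutation adjusted p = 0.0507) and rho 0.701 (permutation adjusted p = 0.0275), with r = 0.729 without the 2 farthest piglets. PSMB10 was not significantly related to PSMB8 (r = 0.432, rho = 0.40), PSMB9 (r = 0.353, rho = 0.328) or PTPRC (r = 0.488, rho = 0.485), with permutation adjusted p between 0.216 and 0.348. In all, 11 relations were computed, in pairs chosen after the values had been seen. The others, between PSMA7, PSMC5, NFE2L1 and ACTA1, had r between 0.182 and 0.425, rho between 0.0049 and 0.434 and permutation adjusted p of at least 0.253. Without the 2 farthest piglets their r was between -0.0609 and 0.391.

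Markers of leukocytes are given beside the immunoproteasome genes, since these are also expressed there. Of 8 markers, 7 were tested, and none passed the test in ULU vs control by edgeR or DESeq2. At an unadjusted p under 0.05, 1 was lower (edgeR), against 8.78% of all genes. All 7 were negative, where 47% of all genes were positive, and 1 was positive with the mitochondrial share as a covariate. Their summed level was 266.7 to 563 CPM in control, 318.6 to 463.1 in UL and 253.4 to 584.7 in ULU. Most of this sum was CD74. Its means were 332.1 CPM in control, 331 in UL and 308.8 in ULU, where the summed means were 388.2, 377.1 and 344.6. PTPRC was at 9 to 48.3 CPM in control and at 7.03, 16.9, 32.2, 6.36 and 8.9 CPM in ULU, with a log2(fold change) of -1.04 (SE 0.43, adjusted p = 0.191, edgeR) that was -1.59 without ULU piglet 42 (adjusted p = 0.0418). The B cell marker MS4A1 had 0 to 20 reads per library and was not tested. The part of leukocyte RNA in the levels of PSMB8 and PSMB9 was not tested.

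Of 15 genes of class I antigen presentation and the interferon response, 12 were tested, and all 12 were negative in ULU vs control under TMM, where 47% of all genes were positive, with 1 positive when the mitochondrial share was a covariate. None passed the test (edgeR), and 5 were lower at an unadjusted p under 0.05, against 8.78% of all genes. DESeq2 called CXCL9 and GBP1 on the 2 diets, where 7.17% of the genes with an adjusted p were called. On all libraries it called CXCL9 and CXCL10, where 8.97% of such genes were called. The 2 with the smallest p in ULU vs control were CXCL9 and CXCL10, chemokines induced by interferon. CXCL9 was at 0.541 to 15.1 CPM in control and 0.175 to 2.9 CPM in ULU, with a log2(fold change) of -2.37 (SE 0.66, adjusted p = 0.056, edgeR). For CXCL10, the ranges were 4.06 to 73 CPM and 3.36 to 19.6 CPM, with a log2(fold change) of -1.76 (SE 0.56, adjusted p = 0.0895). Both sets of ranges overlapped. CXCL9 was called without control piglet 25 (-2.62, adjusted p = 0.0145), UL piglet 27 (-2.37, adjusted p = 0.0481) or ULU piglet 42 (-3.15, adjusted p = 0.026), and CXCL10 without control piglet 25 (-1.99, adjusted p = 0.0214, edgeR).

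The 11S activator binds the ends of the core and is also raised by interferon. PSME1 was at 2.18 to 5.6 CPM in control, 2.49 to 4.27 in UL and 1.9 to 5.08 in ULU, and PSME2 at 6.82 to 13.7, 6.76 to 11 and 6.95 to 9.79 CPM. No shift with diet was detectable in these values, which come from the small unshared parts of both genes. In ULU vs control the log2(fold change) was 0.22 (SE 0.27) for PSME1 and -0.19 (SE 0.18) for PSME2, with adjusted p of 0.695 and 0.597 (edgeR). PSME1 was at 0.48 and PSME2 at -0.037 without control piglet 21, and PSME1 at 0.061 without ULU piglet 43.

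UL vs control addresses the seaweed alone. None of the 33 proteasome genes was called by edgeR's quasi-likelihood test, where 0% of all 14203 genes passed. At an unadjusted p under 0.05 there were 2, PSMA7 higher and PSMC6 lower, against 5.84% of all genes higher and 5.01% lower. DESeq2 called 1, PSMA7, on the 2 diets and on all libraries. Of the genes to which it gave an adjusted p, it called 1.46% of 10209 and 1.61% of 9465. The median log2(fold change) of the 33 was 0.086 and that of all genes -0.0027, and 22 were positive (18 with library totals alone, 17 with the mitochondrial share as a covariate), against 49.5% of all genes. The median of the 33 was 0.019 without UL piglet 27 and 0.013 with the mitochondrial share as a covariate.

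PSMA7 had the largest log2(fold change) of the 33 in UL vs control. The UL piglets were at 104.4 to 115.1 CPM, with a median of 108.9, all above the highest control piglet at 98.1 CPM, as in 0.493% of all genes tested. The log2(fold change) was 0.50 (SE 0.11, unadjusted p = 0.000151, adjusted p = 0.138, edgeR's quasi-likelihood test), and the two-sided exact permutation test gave p = 0.00216, the smallest that 6 against 6 piglets allow. DESeq2 called it, with an adjusted p of 0.00387 on the 2 diets and 0.00588 on all libraries, as did edgeR without control piglet 25 (adjusted p = 0.0362). The same control piglets enter both comparisons, so the values of UL and ULU are not independent evidence of each other. ULU vs UL gave a log2(fold change) of 0.10 (SE 0.11, adjusted p = 0.82, edgeR) for PSMA7.

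PSMC6, an ATPase of the 19S base, was at 215.6 to 244.2 CPM in control and 161.4 to 228.6 CPM in UL, with medians of 232.2 and 197.5 CPM. The ranges overlapped, and the log2(fold change) was -0.22 (SE 0.09, adjusted p = 0.408, edgeR). The other genes with the largest differences in each direction were PSMC5 with 0.20 (SE 0.11) and PSMD4 with 0.17 (SE 0.13), and PSMB8 with -0.42 (SE 0.27) and PSMA3, an alpha-ring subunit, with -0.15 (SE 0.09). Their adjusted p were between 0.515 and 0.685 (edgeR). UL piglet 27 had the highest PSMC4, PSMC5, PSMD4 and PSMB8 of its diet, and without it PSMD4 was at 0.04. PSMB9 and PSMB10 had a log2(fold change) of -0.025 (SE 0.32) and -0.04 (SE 0.13).

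ULU vs UL addresses the added enzyme. No proteasome gene was called by edgeR's quasi-likelihood test, where 0.0352% of all genes tested were called, 0.00704% as higher and 0.0141% with an absolute log2(fold change) of at least 1. DESeq2 called 1 of the 28 proteasome genes to which it gave an adjusted p on the 2 diets, and 0 of 26 on all libraries. Of all genes with an adjusted p, it called 6.23% of 3951 and 12.1% of 2088. At an unadjusted p under 0.05, 3 of the 33 were higher and 1 was lower, against 6.16% and 4.68% of all genes. The median log2(fold change) was 0.06 against -0.021 for all genes, with 23 of 33 positive, against 47% of all genes, and 10 of 33 with library totals alone. Without UL piglet 30 the median of the 33 was 0.014.

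PSMC3, an ATPase of the 19S base, was at 70.9 to 76.9 CPM in UL and at 86.7, 77.4, 83.6, 103.9 and 90 CPM in ULU. In TMM-scaled CPM, every ULU piglet was above every UL piglet, as in 1.09% of all genes tested, but the control values, 63.3 to 102.2 CPM, overlapped with both diets. Of unscaled reads, ULU piglet 43 had a smaller share (2109 of 26546810) than UL piglet 29 (1729 of 20896796). The log2(fold change) of PSMC3 was 0.28 (SE 0.13, adjusted p = 0.437, edgeR), and DESeq2 called it on the 2 diets (adjusted p = 0.0355) and not on all libraries. PSMD11 had 0.27 (SE 0.11, adjusted p = 0.402) and PSMC5 had 0.26 (SE 0.11, adjusted p = 0.429), while PSMB10 had -0.36 (SE 0.14, adjusted p = 0.359), PSMB9 -0.55 (SE 0.34, adjusted p = 0.596) and PSMB8 -0.29 (SE 0.28, adjusted p = 0.787). All 4 structural genes of the beta ring were negative and all 6 ATPases positive (4 of 6 with library totals alone), and none of these 10 passed the test (edgeR).

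Genes that regulate or assemble the proteasome, or act beside it, were read from the same fit. Of 8 transcription factors of proteasome genes and the enzymes that process them, 5 were tested. In ULU vs control NFE2L1 rose and none fell, against 1.99% of all genes called higher and 0.993% lower. NFE2L1 encodes the factor that raises proteasome genes when proteolysis is impaired, through release from the endoplasmic reticulum and processing of its protein. It was at 34.7 to 47.2 CPM in control, 37.4 to 51.1 CPM in UL and 57.2, 48.6, 62.7, 62.3 and 52.1 CPM in ULU, all above control in TMM-scaled CPM. Of unscaled reads, ULU piglet 43 had a smaller share (1265 of 26546810) than control piglet 26 (987 of 17773850). The log2(fold change) was 0.45 (SE 0.11, adjusted p = 0.0337, edgeR), against 0.14 (SE 0.10, adjusted p = 0.687) in UL vs control. The call was lost in 7 of the 17 fits without a library (adjusted p between 0.0522 and 0.0953, edgeR), those without control piglet 21, 22, 23 or 24 or ULU piglet 40, 42 or 43, and with library totals alone (0.25, adjusted p = 0.307), with the mitochondrial share as a covariate (0.47, adjusted p = 0.362), with no filter on low counts (adjusted p = 0.0556) and on only the 2 diets (adjusted p = 0.0742). NFE2L2, the related antioxidant factor, named after its values were seen, was at 111 to 132.5 CPM in control and 88 to 105 CPM in ULU, with a log2(fold change) of -0.24 (SE 0.10, adjusted p = 0.205, edgeR).

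Of 16 ubiquitin ligases of muscle, all tested, CBLB fell in ULU vs control and none rose, against 0.993% of all genes called lower and 1.99% higher. CBLB, a ligase that attenuates receptor signalling, was at 30.7 to 53.4 CPM in control, 30.7 to 40.7 in UL and 22.5, 26.3, 34.4, 25.4 and 28.1 in ULU. Only control piglet 25 lay within the ULU range, and the log2(fold change) was -0.75 (SE 0.14, adjusted p = 0.0107, edgeR), a call kept without any of the 17 libraries but not with the mitochondrial share as a covariate (-0.56, adjusted p = 0.386). FBXO32 and TRIM63, the ligases best known from muscle wasting, did not pass. FBXO32 was at 16.4 to 85.2 CPM in control and 19.4 to 38.2 CPM in ULU (log2(fold change) -0.42, SE 0.44, adjusted p = 0.645, edgeR), and TRIM63 at 52.4 to 88.8 and 40 to 76.9 CPM (-0.42, SE 0.21, adjusted p = 0.291), and both values were positive with the mitochondrial share as a covariate. Without control piglet 22, which had the highest FBXO32, the value of FBXO32 was -0.032.

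None of the 11 other proteasome subunits and bound factors tested, of 14, passed in any comparison (edgeR or DESeq2). By edgeR, 1 had an unadjusted p under 0.05 in ULU vs control (18.9% of all genes) and 2 in ULU vs UL (10.8%). PSMD2, the scaffold of the 19S base on which ubiquitin shuttles dock, was at 141.7 to 195 CPM in control and 171.6 to 217.6 CPM in ULU, with a log2(fold change) of 0.11 (SE 0.11, adjusted p = 0.639, edgeR) that was -0.079 with library totals alone. USP14, a deubiquitinase bound to the cap, had 0.22 (SE 0.10, adjusted p = 0.238) in ULU vs control, and PSME4, an alternative activator of the core, had 0.27 (SE 0.11, adjusted p = 0.403) in ULU vs UL.

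The 5 assembly chaperones tested, of 7, also had no call by either tool. By edgeR, 1 gene had an unadjusted p under 0.05 in UL vs control (10.8% of all genes) and 1 in ULU vs control (18.9%). PSMG3, which helps to build the alpha ring, had a log2(fold change) of 0.42 (SE 0.19, adjusted p = 0.432) in UL vs control. Its value in ULU vs control was 0.43 (SE 0.20, adjusted p = 0.249), and POMP, the maturation factor of the core, had 0.16 (SE 0.11, adjusted p = 0.464) in ULU vs control (edgeR). Of 15 genes of autophagy and the lysosome, the other route of protein breakdown in muscle, none was called by edgeR, which gave an unadjusted p under 0.05 to 1 gene in UL vs control (10.8% of all genes), to 4 genes in ULU vs control (18.9%) and to 2 genes in ULU vs UL (10.8%). DESeq2 called LAMP2 in UL vs control on all libraries and BNIP3, a mitophagy receptor, in ULU vs UL on the 2 diets. LAMP2, of the lysosomal membrane, had -0.25 (SE 0.08, adjusted p = 0.281) in UL vs control and GABARAPL1, of the autophagosome, -0.51 (SE 0.18, adjusted p = 0.129) in ULU vs control.

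Markers of muscle fibres are given beside PSMA7 and PSMC5. With each diet's mean removed, neither gene was significantly related to ACTA1 over the piglets, a relation that does not address differences between diets. Of 8 markers, 6 were tested, and all 6 were positive in ULU vs control, against 47% of all genes. Of the 6, TNNT3, fast skeletal troponin T, was called, against 1.99% of all genes called higher. Its log2(fold change) was 0.66 (SE 0.15, adjusted p = 0.028, edgeR). The call was lost without control piglet 22, 23 or 26 or ULU piglet 40, 41 or 43 (adjusted p between 0.0516 and 0.0652, edgeR). It was also lost with the mitochondrial share as a covariate (0.64, adjusted p = 0.369), with no filter on low counts (adjusted p = 0.0536) and on only the 2 diets (adjusted p = 0.0752). The summed level of the muscle markers was 107687 to 178588 CPM in control, 144934 to 183383 in UL and 156660 to 285843 in ULU. ACTA1 had a log2(fold change) of 0.64 (SE 0.19, adjusted p = 0.0666, edgeR) and was called without control piglet 25 (0.71, adjusted p = 0.0407) or ULU piglet 42 (0.73, adjusted p = 0.0444). It was also called with library totals alone (0.44, adjusted p = 0.0474) and by DESeq2 (adjusted p = 0.0177 on the 2 diets and 0.00738 on all libraries). The part of fibre RNA in the differences of PSMA7 and PSMC5 was not tested. Of the 5 fibroblast markers, 4 endothelial and 3 adipocyte markers tested, none passed in ULU vs control by edgeR or DESeq2. At an unadjusted p under 0.05, 2 of the fibroblast markers were lower (edgeR), against 8.78% of all genes. All 5 fibroblast markers (median log2(fold change) -0.36) and all 3 adipocyte markers (-1.36) were negative, and 2 of the 4 endothelial markers, where 47% of all genes were positive. The summed levels of control and ULU overlapped for all 3, at 2640 to 5724 and 2248 to 5724 CPM for fibroblasts, 92.1 to 149.7 and 96.2 to 163 CPM for endothelium and 10.5 to 268.8 and 2.58 to 51.3 CPM for adipocytes.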

How the data were processed

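The authors trimmed single-end reads with fastp, aligned them with HISAT2 to Sscrofa11.1 and deposited raw counts per gene, without normalization. The header of that table gives featureCounts 2.0.1 with Ensembl annotation 104, and the submitters' processing notes name Subread 1.5.1 and DESeq2 1.34.0. The header names no option for strand, multi-mapped reads or reads over several genes, so that reads of overlapping genes were left out. A deposited column of rounded means over the libraries, treated as a score, was used only as a check.

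All 17 count columns were used. Of the 35 genes, 32 were found by Ensembl ID in a name table (which held 15029 of the 31908 IDs), and PSMB5 and PSMB6 by position in RefSeq, Sscrofa11.1. Counts were tested with edgeR 4.0.16 in R 4.3.3: filterByExpr (14203 genes), TMM, and the quasi-likelihood F test in 1 model of 17 libraries, two-sided, with Benjamini-Hochberg adjustment and a call at 0.05. The study's additional limit of 1 on the log2(fold change) was an alternative, as were DESeq2 1.42.0, other scalings, no filter, the mitochondrial share as a covariate, and leaving out each library. SE is the absolute log2(fold change) divided by the square root of F. Log2 CPM used a prior count of 2. Exact permutation tests used mean log2 CPM over all splits and were not adjusted; relations used 100000 permutations. The scripts were tested on simulated data. The limit of detection covers counting error only. The SD and SE come from values of separate piglets, so they also include variation between piglets.

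The members, gene lists and tests were chosen with earlier results of these data known. Genes named with values were every called proteasome gene, the catalytic and 11S genes, the 3 largest changes either way in every comparison, PSMD2, FBXO32, TRIM63 and NFE2L1, and, per related list, up to 5 called genes or else the 2 with the smallest p. Protein and promoter sequences were not analysed here. The list of ubiquitin supply genes is not reported here.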

Additional observations from a re-analysis of the deposited data

Results flagged for a closer look

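In 99 groups, 33 proteasome genes in each of 3 diets, the highest or lowest piglet was compared with the others of its diet, and 6 were set apart by a gap to the nearest piglet that was large against the range of the group (Dixon's criterion), where chance gives about 1 group in 20. PSMC5 was at 191.2 CPM in ULU piglet 43, with the next ULU piglet at 158.2 CPM. That gap depends on the scaling, since ULU piglet 43 had the lowest TMM factor, 0.7649. Of unscaled reads, ULU piglet 42 had a larger share (3652 of 22320520) than ULU piglet 43 (3879 of 26546810). UL piglet 27 was set apart for PSMC4, at 102.6 CPM with the next at 71.7 CPM, and for PSMB8, at 23.2 CPM with the next at 14.8 CPM. Control piglet 23 was set apart on the low side for PSMA1, at 104.4 CPM with the next at 119 CPM, and for PSMD12, at 91.4 CPM with the next at 112.8 CPM. PSMB3 was at 23.6 CPM in ULU piglet 44, with the next at 26.5 CPM. UL piglet 27 also had the lowest mitochondrial share of its diet, 8.64%.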

How the results depend on the processing

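Of 54 values of 33 named genes recomputed under 7 alternatives other than leaving out a library (378 values), 343 kept direction and side of the threshold, 16 lost and 12 gained a call and 7 reversed. The reversals were FBXO32 (0.59), TRIM63 (0.064) and PSMD2 (-0.025) in ULU vs control and PSMB10 (0.051) and PSMD4 (-0.059) in UL vs control with the mitochondrial share as a covariate, and POMP (-0.016) and PSMD2 (-0.079) in ULU vs control with library totals alone. Without 1 library (918 values), 869 were the same, 31 lost a call, 10 gained a call and 8 reversed, in UL vs control: PSMB9 between -0.24 and 0.22, and PSMB10 between -0.11 and 0.021.

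Of the proteasome genes, ULU vs control called 2. It called 0 with library totals alone, with the mitochondrial share and with the study's fold limit, 1 in edgeR on 2 diets, 3 by DESeq2, and 1 to 3 without 1 library. UL vs control called 1 by DESeq2 on 2 diets or all libraries and 0 to 1 without 1 library, and ULU vs UL called 1 by DESeq2 on 2 diets. In ULU vs control their median was -0.11 on the log2 scale with library totals alone, where that of all genes was -0.21.

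Over all genes, ULU vs control called 423. The count was 228 with no filter, 8 with the mitochondrial share, 111 in edgeR on 2 diets, 825 and 1069 by DESeq2 on 2 diets and all libraries, 59 with the fold limit, and 147 (without ULU piglet 43) to 799 (without control piglet 25). UL vs control called 0, and 2 with the mitochondrial share, 149 and 152 by DESeq2, and 0 to 16 without 1 library. ULU vs UL called 5, and 9 with library totals, 8 with no filter, 2 with the mitochondrial share, 1 in edgeR on 2 diets, 246 and 252 by DESeq2, 2 with the fold limit, and 1 to 7 without 1 library. The cause was not tested.

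No paired analysis was made: no animal number is shared between diets, and the sample labels do not say which piglets were matched in the pair-feeding. Shared exons limit PSMB7, PSMB10, PSMC3, PSMC5, PSMD4, PSME1 and PSME2, and the 5 or 6 piglets per diet limit the differences that can be resolved. Control and ULU did not overlap in mitochondrial share, so that share and diet cannot be fully told apart.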

Other observations

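The gene that stands over PSMA6 in the annotation, PRORP, a subunit of mitochondrial RNase P, was counted at 2575 to 4120 reads per library. Its log2(fold change) was 0.053 (SE 0.10, adjusted p = 0.817, edgeR) in ULU vs control and 0.027 (SE 0.10, adjusted p = 0.951) in UL vs control, and how many of these reads come from PSMA6 was not tested. C14orf93, which shares most exonic bases of PSMB5, was at 395 to 799 reads per library, with 0.23 (SE 0.13, adjusted p = 0.361, edgeR) in ULU vs control. PSKH1, which overlaps PSMB10 on the opposite strand, had 0.19 (SE 0.12, adjusted p = 0.401) in ULU vs control, where PSMB10 had -0.40.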
